A study of Mus musculus with 17 samples.

Results

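The 10 genes described here are 3 fibroblast growth factor (FGF) receptors (*Fgfr1*, *Fgfr2*, and *Fgfr3*), 3 of their ligands (*Fgf1*, *Fgf2*, and *Fgf9*), 3 Sprouty genes (*Spry1*, *Spry2*, and *Spry4*), and the ETS transcription factor gene *Etv5*. They were chosen by symbol, and all 10 were found among the 26556 genes of the count files and passed the filter on low counts, which kept 17856 genes. The 17 RNA-seq libraries came from astrocytes sorted by FACS from P7 *Gfap::GFP* mice on the FVB background, in which GFP driven by the *Gfap* promoter marks the cells. There were 4 libraries of the (primary somatosensory) cortex, 5 of the dorsolateral geniculate (dLG), 4 of the ventral posteromedial (VPM), and 4 of the ventromedial geniculate (MGv) nucleus, with 4 brains pooled in each, and the 3 nuclei together make up the thalamus group of 13. All groups share strain, age, and reporter, and none was treated. The comparisons ask whether astrocytes of the 2 regions, and of the nuclei within the thalamus, differ in the FGF pathway.

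FGFs are secreted proteins that bind receptor tyrosine kinases on the cell surface together with heparan sulfate. The active receptor recruits adaptors and turns on the Ras-ERK cascade, which induces ETS factors such as *Etv5* and also its own inhibitors, the Sprouty proteins and dual-specificity phosphatases. In the brain, FGF signaling is known to pattern the early forebrain and to promote astrocyte development, and *Fgfr3* is widely used as an astrocyte marker.

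Sequencing depth lay between 18213687 and 50366363 counts, and a limit of 3 counts was equal to 0.0596 to 0.165 CPM (counts scaled to library size), which covers counting error only. Of the libraries, dLG replicate c stood apart with 17749 genes detected against 21052 to 23365 in the others. The summed level of 8 astrocyte markers was between 12240 and 12900 CPM in cortex and between 5781 and 15480 CPM in thalamus, and 3 of the 8 (*Slc1a2*, *Slc1a3*, and *Aldoc*) were lower in thalamus, as were 3 in dLG, 5 in VPM, and 4 in MGv, each against cortex. All 8 were detected in every library, but *Gfap*, whose promoter drives the reporter, was at 438 to 537 CPM in cortex, 78.9 to 1336 CPM in dLG, 8.73 to 18.9 CPM in VPM, and 36.5 to 5731 CPM in MGv. The 7 markers of the oligodendrocyte lineage were also detected in every library, with a sum of 6355 to 10800 CPM, and edgeR called 0 of them between the regions, with 0 at an unadjusted p under 0.05. Between single groups, 1 was higher in VPM than in cortex, and 1 was higher and 1 lower in dLG than in VPM. In VPM against MGv, 2 were higher and 2 lower. The 10 neuron markers summed to 755 to 1984 CPM and the 5 endothelial markers to 0.389 to 45.0 CPM. The 5 microglia markers summed to 5.94 to 85.8 CPM, and all 5 were higher in dLG than in VPM. The 5 mural and meningeal markers summed to 52.2 to 94.9 CPM in cortex and to 13.5 to 40.9 CPM in thalamus, where *Pdgfrb* and *Col1a2* were lower and *Dcn* was higher. The 3 ependymal markers summed to 2.80 to 66.5 CPM in cortex and to 0.286 to 6.16 CPM in thalamus, and the 1 that was tested, *Foxj1*, was lower in thalamus. In bulk libraries, fewer cells of one type and less RNA per cell cannot be told apart.

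In thalamus against cortex, 3 of the 10 genes differed at a Benjamini-Hochberg (BH)-adjusted p under 0.1 in edgeR's quasi-likelihood test, the threshold used throughout. *Fgf9* and *Spry1* were higher in the thalamus, and *Fgfr2* was lower. The background was 11.4% of the 17856 genes called in either direction, with 5.45% higher and 5.93% lower. The 250 bases before the RefSeq transcription start (GRCm38.p6) of these 3 genes are shown because they are the genes that differed between the regions. The letters run 5′ to 3′ on the strand of the gene, with each CG dinucleotide in capitals. The windows are chr7:130266809-130267058 on the minus strand for *Fgfr2*, chr14:58072436-58072685 on the plus strand for *Fgf9*, and chr3:37639697-37639946 on the plus strand for *Spry1*.
Fgfr2: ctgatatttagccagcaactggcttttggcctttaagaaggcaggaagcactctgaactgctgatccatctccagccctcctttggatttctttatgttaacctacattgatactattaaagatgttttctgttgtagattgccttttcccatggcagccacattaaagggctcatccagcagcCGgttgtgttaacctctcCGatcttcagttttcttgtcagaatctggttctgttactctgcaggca
Fgf9: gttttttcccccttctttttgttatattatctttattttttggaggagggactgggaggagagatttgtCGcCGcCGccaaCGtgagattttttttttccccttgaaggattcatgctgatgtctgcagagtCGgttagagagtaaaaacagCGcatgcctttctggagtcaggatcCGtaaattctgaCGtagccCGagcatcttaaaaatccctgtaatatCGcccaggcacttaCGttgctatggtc
Spry1: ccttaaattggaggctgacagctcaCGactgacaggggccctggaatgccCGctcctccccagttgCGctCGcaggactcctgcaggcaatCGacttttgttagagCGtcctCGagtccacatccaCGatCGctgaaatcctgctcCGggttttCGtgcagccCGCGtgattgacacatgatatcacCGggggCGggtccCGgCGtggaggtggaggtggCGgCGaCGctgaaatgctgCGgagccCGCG
The 3 windows are unlike in base composition. Those of *Fgfr2* and *Fgf9* lie within the annotated span of the gene used for counting, so they are not the 5′ ends of those annotations. The *Fgfr2* window holds 2 CG dinucleotides, the *Fgf9* window 11, and the *Spry1* window 23, and the median of 32851 such windows was 6 (quartiles 2 and 16). The GC content was 44% for *Fgfr2*, 44.8% for *Fgf9*, and 62.4% for *Spry1*, against a median of 52.4%. The motif CCGGAAG, bound by ETS factors, was searched on both strands and occurred in 6.91% of all windows. No window of the 7 members with an entry held it, and these are too few to set against that share. Its core, GGAA, occurred in 93.4% of windows, with 2 sites in that of *Fgfr2*, 2 in that of *Fgf9*, and 1 in that of *Spry1*. The letters TATAAA, in 12.4% of all windows, were in none of these 3. The *Spry1* window overlaps an exon of the antisense gene *Gm42922*, and the windows of the other 2 genes overlap no annotated exon.

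*Fgfr3* was the predominant receptor transcript in every library. Per kilobase of exon, it made up 76.2 ± 4.69% (SD, n = 4) of the 3 receptors in cortex, 74.2 ± 2.57% (n = 5) in dLG, 82.4 ± 1.64% (n = 4) in VPM, and 81.1 ± 1.25% (n = 4) in MGv, with a lowest share of 69.6% in a dLG library. *Fgfr1* took between 8.27% and 18.4% of the sum and *Fgfr2* between 4.43% and 13.1%. *Fgfr4*, the remaining signaling receptor, had 0.320 CPM in cortex and 0.732 CPM in thalamus.

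**Figure D1:**
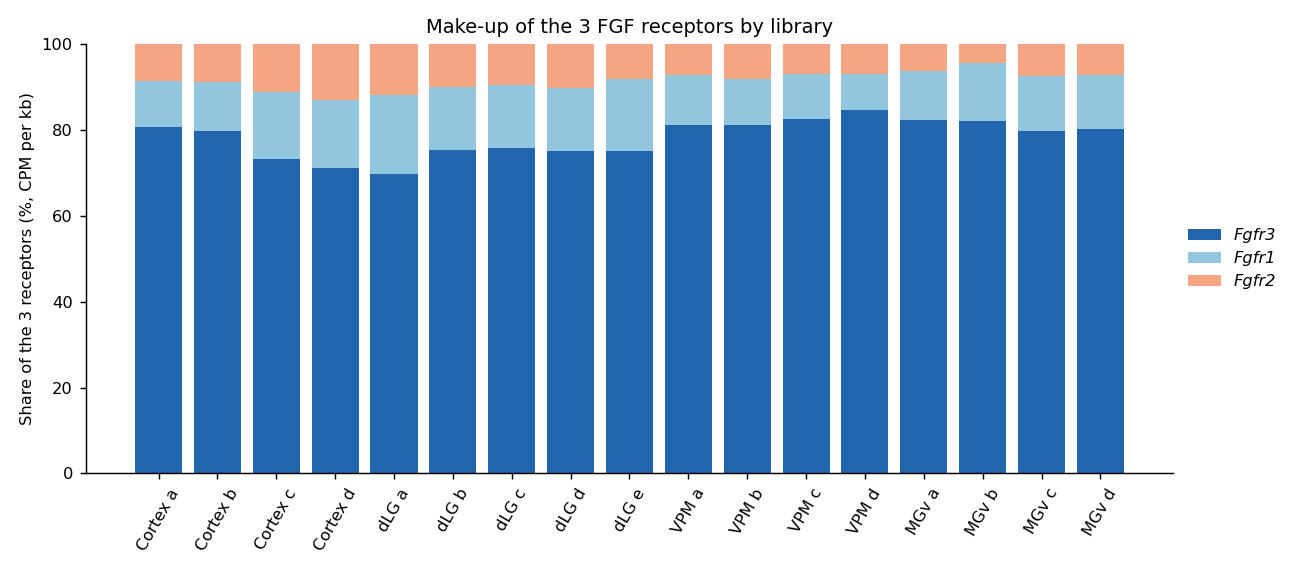
Share of *Fgfr3* (dark blue), *Fgfr1* (light blue), and *Fgfr2* (orange) in the sum of the 3 receptors, in percent of CPM per kilobase of exon, with 1 bar per library. *Fgfr3* holds between 69.6% and 84.7% in all 17 libraries.

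*Fgfr1* (chromosome 8, 25513654 to 25575718, GRCm38) encodes the receptor that is expressed broadly in neural progenitors. In cortex, its level was 118, 132, 170, and 171 CPM, and in dLG it was 112, 126, 141, 162, and 174 CPM. In VPM it was 74.6, 78.0, 80.0, and 97.3 CPM, and in MGv 87.4, 116, 142, and 144 CPM. Every VPM library was below every library of cortex and of dLG, whereas the ranges of cortex, dLG, and MGv overlapped. Against cortex, the log2FC was -0.81 ± 0.17 (SE) in VPM (edgeR adjusted p = 0.00549), and dLG was above VPM by 0.74 ± 0.17 (edgeR adjusted p = 0.0144). VPM was also below MGv by a log2FC of -0.50 ± 0.17 (edgeR adjusted p = 0.0772), a call that was lost without each of 6 libraries of these 2 nuclei (MGv replicates b, c, and d and VPM replicates a, b, and d; edgeR adjusted p from 0.101 to 0.169). It was also lost when the series of library numbers was a covariate (-0.44, edgeR adjusted p = 0.147), where all 4 MGv libraries belong to the same series and the VPM libraries to 2. With the 13 thalamic libraries pooled, *Fgfr1* did not pass the threshold (log2FC = -0.34 ± 0.19, edgeR adjusted p = 0.329), but with thalamus as the mean of the 3 nuclei in the fit of 4 groups it did (-0.40, edgeR adjusted p = 0.0687). Astrocyte markers were also low in VPM, where 5 of the 8 were lower than in cortex, with a median log2FC of -0.89 over the 8. The within-group correlation of *Fgfr1* with their sum, which was highest in MGv replicate c (15480 CPM), was 0.454 over 17 libraries. The part of these markers in the *Fgfr1* difference was not tested.

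*Fgfr2* (chromosome 7, 130162451 to 133123350, GRCm38), whose product binds FGF9 among other ligands, was the only one of the 3 receptors called with the 13 thalamic libraries pooled. It had 98.6, 106, 126, and 149 CPM in cortex and 76.0, 83.05, 92.1, 103, and 121 CPM in dLG. It had 52.0, 62.2, 66.7, and 66.9 CPM in VPM and 49.2, 49.7, 70.3, and 86.1 CPM in MGv. The mean levels ran in the order cortex, dLG, MGv, and VPM, and no VPM or MGv library reached the lowest of cortex, but no 2 neighbors in this order differed at the threshold. The difference between thalamus and cortex was -0.69 ± 0.19 in log2FC (1.61-fold lower, edgeR adjusted p = 0.0274), with 11 of 13 thalamic libraries below all of cortex. It rested on cortex replicates c and d, without which the adjusted p was 0.102 and 0.196 in edgeR. VPM and MGv were below cortex by log2FCs of -0.92 ± 0.19 and -0.95 ± 0.19 (edgeR adjusted p = 0.00339 and 0.00263), and dLG was above VPM by 0.56 ± 0.18 (edgeR adjusted p = 0.0608). This last call was lost without dLG replicate b, dLG replicate c, or VPM replicate a (edgeR adjusted p = 0.114, 0.132, and 0.160), and when the series of library numbers was a covariate (edgeR adjusted p = 0.122). The annotated gene overlaps *Ctbp2* (same strand) in 3.04% of its exonic length. The mean level of *Ctbp2* was 56.6 CPM in cortex and 61.5 CPM in thalamus. Centered within groups, the level of *Fgfr2* was correlated with the summed astrocyte markers over the 17 libraries (r = 0.683), as a description of libraries that share normalization. That sum was 15480 CPM in MGv replicate c, which held the highest *Fgfr2* level of MGv (86.1 CPM), and 5781 to 8053 CPM in the other MGv libraries. The part of the astrocyte markers in the difference was not tested.

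*Fgfr3* (chromosome 5, 33721674 to 33737068, GRCm38) was at 560 to 667 CPM in cortex, 308 to 655 CPM in dLG, 400 to 556 CPM in VPM, and 454 to 639 CPM in MGv. All VPM libraries were below all cortical ones, with no overlap, but no comparison of *Fgfr3* passed the threshold. The log2FC of thalamus against cortex was -0.26 ± 0.15 (edgeR adjusted p = 0.334), and the lowest library was dLG replicate a. The antisense gene *G630022F23Rik* overlaps 13.9% of the exonic length of *Fgfr3* and itself had at most 3.63 CPM in any library.

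**Figure D2:**
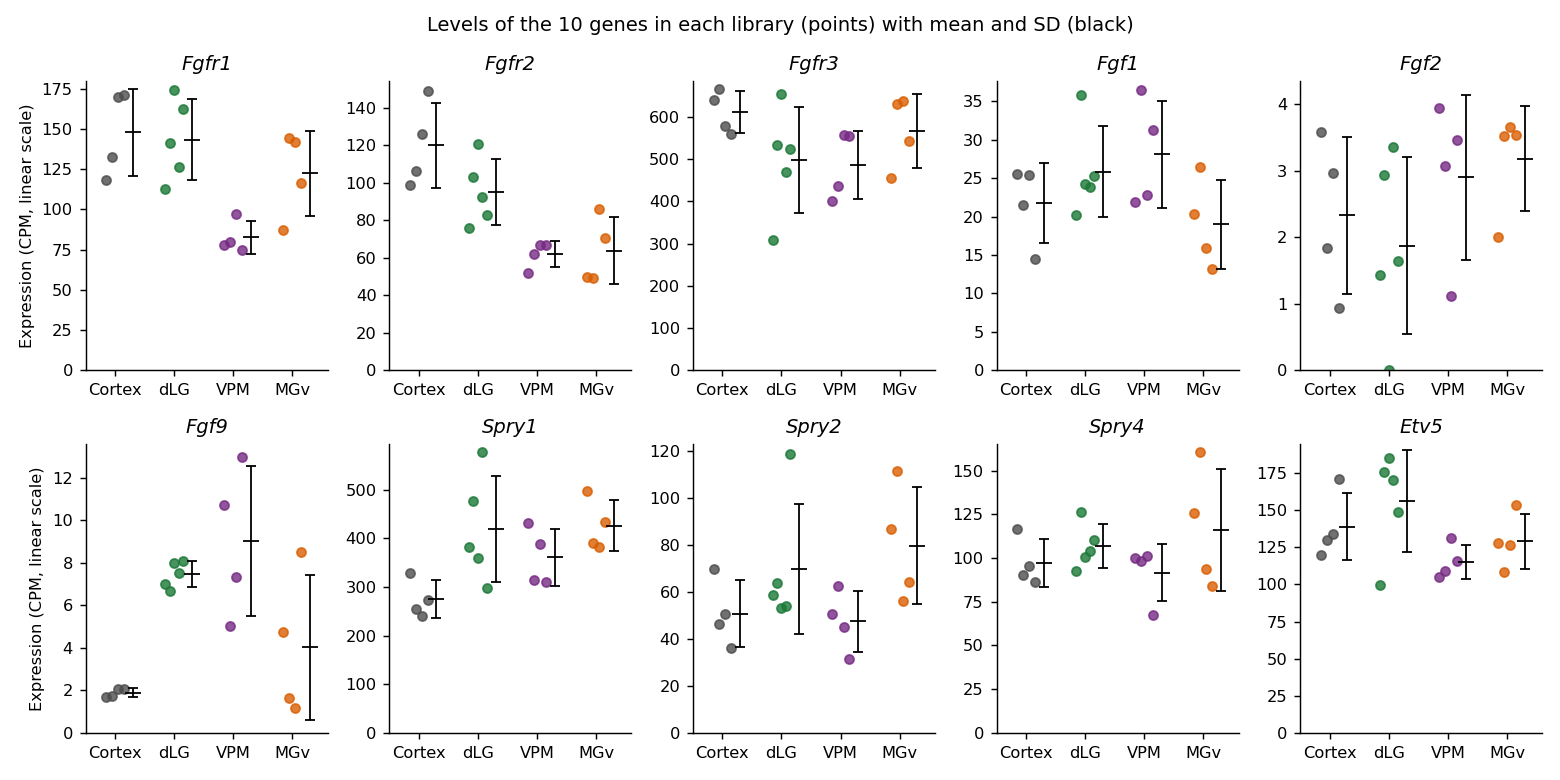
CPM of each of the 10 genes on a linear scale in each library (points), by cortex, dLG, VPM, and MGv, with the mean and SD of the group in black. VPM is low for *Fgfr1* (74.6 to 97.3 CPM), and *Fgf9* is near 2 CPM in cortex and spread between 1.18 and 8.54 CPM in MGv.

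Of the ligands, *Fgf9* (chromosome 14, 58070547 to 58112720, GRCm38) encodes a secreted factor that neurons are known to make. Its level was 1.68, 1.74, 2.05, and 2.08 CPM in cortex and 6.69, 7.02, 7.51, 8.01, and 8.09 CPM in dLG. It was 5.05, 7.35, 10.7, and 13.0 CPM in VPM and 1.18, 1.63, 4.77, and 8.54 CPM in MGv. All dLG and VPM libraries were above all of cortex, and the MGv libraries lay on both sides of it. Thalamus was 3.64-fold above cortex (log2FC = 1.86 ± 0.48, edgeR adjusted p = 0.0179), dLG 3.88-fold (1.96 ± 0.46, edgeR adjusted p = 0.00802), and VPM 4.88-fold (2.29 ± 0.48, edgeR adjusted p = 0.0044). The MGv difference from cortex did not pass (1.07 ± 0.47, edgeR adjusted p = 0.159). VPM was above MGv by 1.22 ± 0.46 (edgeR adjusted p = 0.0996), just inside the threshold, and the call was lost in 14 of the 17 fits that left out 1 library, with adjusted p up to 0.283 without VPM replicate d. The value was 0.87 without MGv replicate c (edgeR adjusted p = 0.223) and 1.86 without MGv replicate d (edgeR adjusted p = 0.0226). The call was also lost when the series of library numbers was a covariate (edgeR adjusted p = 0.124) and with only these 2 groups in the fit (edgeR adjusted p = 0.164). These levels rest on 24 to 271 counts per library.

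The summed neuron markers varied with *Fgf9* over the libraries. *Fgf9* was compared with 10465 genes with a mean of at least 10 CPM, which *Fgf9* itself did not reach. Most similar in pattern over the 17 libraries were *Nefl* (r = 0.941) and *Nefm* (r = 0.935), which encode neurofilament subunits of neurons. *Car4* (r = 0.898), which encodes a carbonic anhydrase, came next. *Nefl* rose from 32.3 ± 6.04 CPM in cortex to 126 ± 59.8 CPM in thalamus, and *Nefm* from 16.2 ± 3.28 to 79.6 ± 41.5 CPM. The summed neuron markers were at 1984 and 1646 CPM in MGv replicates a and d, where *Fgf9* was at 4.77 and 8.54 CPM, and at 792 and 755 CPM in MGv replicates b and c, where *Fgf9* was at 1.63 and 1.18 CPM. In cortex the sum was 1016 to 1258 CPM, in dLG 1385 to 1769 CPM, in VPM 815 to 1743 CPM, and in MGv 755 to 1984 CPM. Of the 10 neuron markers, 3 rose in thalamus against cortex (*Slc17a6*, *Nefm*, and *Nefl*), 1 fell (*Rbfox3*), and 6 did not pass. Centered within groups, the correlation of *Fgf9* with the sum, which includes *Nefl* and *Nefm*, was 0.870 over the 17 libraries. Without centering it was 0.698. The within-group correlation with the astrocyte markers was -0.630, and MGv replicate c held both their highest sum (15480 CPM) and the lowest *Fgf9* level. VPM replicate b had 5.05 CPM of *Fgf9* at a neuron marker sum of 815 CPM, whereas cortex had at most 2.08 CPM at sums of at least 1016 CPM. The part of neuronal RNA in the *Fgf9* difference was not tested.

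**Figure D3:**
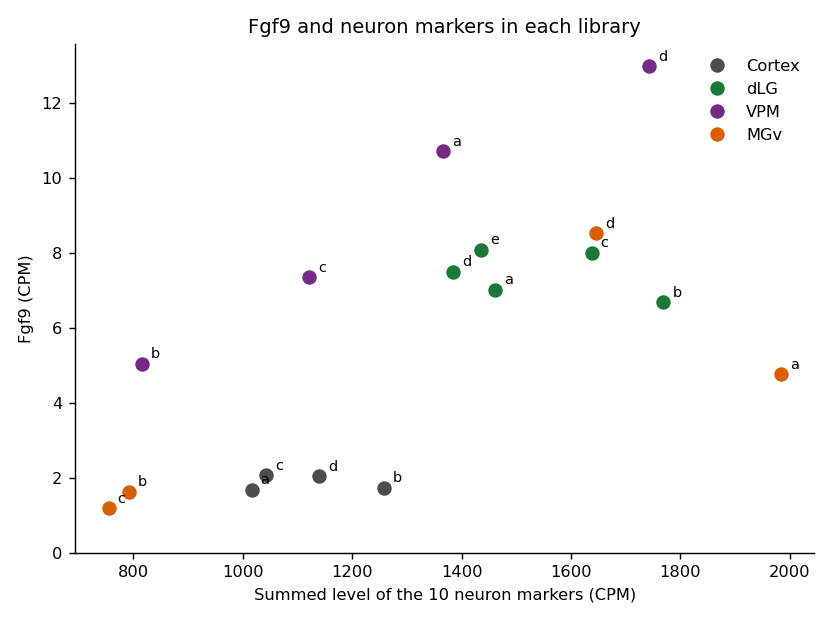
*Fgf9* in CPM (vertical axis) against the summed CPM of 10 neuron markers (horizontal axis) in each of the 17 libraries, colored by group and lettered by replicate. The 2 MGv libraries with the lowest sums (755 and 792 CPM) hold the lowest *Fgf9* levels of all (1.18 and 1.63 CPM).

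*Fgf1* (chromosome 18, 38838673 to 38929472, GRCm38), a ligand that binds all FGF receptors, did not differ in any of the 7 comparisons at the threshold. It was at 14.5 to 25.6 CPM in cortex, 20.2 to 35.8 CPM in dLG, 21.9 to 36.5 CPM in VPM, and 13.2 to 26.5 CPM in MGv. Its log2FC of thalamus against cortex was 0.15 ± 0.23 (edgeR adjusted p = 0.769). *Fgf2* (chromosome 3, 37348346 to 37410108, GRCm38), the ligand used to expand neural stem cells in culture, was scarce, with 0.927 to 3.57 CPM in cortex and 0 to 3.95 CPM in thalamus. dLG replicate c, the library with only 17749 genes detected, had 0 counts of *Fgf2*. By counting error alone, this allows up to 0.140 CPM there, and losses before sequencing are not covered. The log2FC of thalamus against cortex for *Fgf2*, 0.13 ± 0.61 (edgeR adjusted p = 0.938), leaves a wide range. Exons of *Nudt6* (opposite strand) and *Gm43439* (same strand) overlap 13.2% of the exonic length of *Fgf2*. The mean level of *Nudt6* was 2.03 CPM in cortex and 1.82 CPM in thalamus, near that of *Fgf2*. Per kilobase of exon, *Fgf1* was the most abundant of the 3 ligands, with 4.36 ± 1.19 CPM per kb over the 17 libraries against 1.23 ± 0.766 for *Fgf9* and 0.373 ± 0.174 for *Fgf2*, all below the 75.2 ± 13.8 of *Fgfr3*.

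The Sprouty genes encode inhibitors of receptor tyrosine kinase signaling that are themselves induced by it. *Spry1* (chromosome 3, 37639947 to 37644598, GRCm38) was the most abundant member per kilobase of exon, with 128 ± 31.3 CPM per kb over the 17 libraries. It had 240, 255, 274, and 329 CPM in cortex, 297, 360, 383, 477, and 577 CPM in dLG, 310, 314, 388, and 431 CPM in VPM, and 383, 390, 434, and 497 CPM in MGv. Every MGv library was above all of cortex, and 10 of 13 thalamic libraries were. Thalamus was above cortex by a log2FC of 0.54 ± 0.16 (1.45-fold, edgeR adjusted p = 0.0377), dLG by 0.58 ± 0.18 (edgeR adjusted p = 0.0350), and MGv by 0.59 ± 0.18 (edgeR adjusted p = 0.0457), whereas VPM did not pass (0.42 ± 0.18, edgeR adjusted p = 0.235). These calls rested on single cortical libraries. Without cortex replicate b, the adjusted p was 0.139 for thalamus, 0.105 for dLG, and 0.129 for MGv, and without cortex replicate c it was 0.113 for thalamus, each by edgeR. The antisense gene *Gm42922* overlaps 24.4% of the exonic length of *Spry1*, and its level was at most 1.00 CPM in any library. The genes most similar in pattern to *Spry1* were *Kcnd2* (r = 0.824), a potassium channel gene, *AW551984* (r = 0.816), and *Iws1* (r = 0.814). For *Fgfr2* they were *Tnfrsf19* (r = 0.893), *Foxo1* (r = 0.888), and *Rnf167* (r = 0.882).

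*Spry2* (chromosome 14, 105891947 to 105896819, GRCm38) and *Spry4* (chromosome 18, 38586247 to 38601415, GRCm38) passed in no comparison. *Spry2* was at 36.1 to 70.0 CPM in cortex, 53.0 to 119 CPM in dLG, 31.6 to 62.7 CPM in VPM, and 56.0 to 112 CPM in MGv, with a log2FC of 0.35 ± 0.26 for thalamus against cortex (edgeR adjusted p = 0.484). *Spry4* was at 86.3 to 117 CPM in cortex and 67.3 to 161 CPM in thalamus, with a log2FC of 0.09 ± 0.16 (edgeR adjusted p = 0.801). The groups overlapped throughout for both genes. Within groups, *Spry2* and *Spry4* varied together (r = 0.729 over 17 libraries), and so did *Spry1* and *Dusp6* (r = 0.799). Without centering, the values were 0.784 and -0.086. Other pairs went the other way within groups, such as *Fgfr2* with *Spry2* (r = -0.661) and with *Spry4* (r = -0.535). These are only some of the pairs compared.

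*Etv5* (chromosome 16, 22381309 to 22439719, GRCm38) was the member that differed least between the regions, with a log2FC of -0.05 ± 0.16 (edgeR adjusted p = 0.893). It was at 120, 130, 134, and 171 CPM in cortex and at 99.5 to 185 CPM in thalamus. Its largest difference was dLG above VPM by 0.38 ± 0.16, which did not pass (edgeR adjusted p = 0.153). Within groups, *Etv5* was correlated with *Fgfr2* (r = 0.698 over 17 libraries).

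Immediate early genes, which respond to ERK and also to tissue dissociation, varied between groups and libraries. Their summed level of 10 genes was 921 to 4166 CPM in cortex, 3272 to 4335 CPM in dLG, 800 to 3016 CPM in VPM, and 5283 to 7213 CPM in MGv. Between the pooled thalamus and cortex, *Ier2* was called, higher in thalamus (log2FC = 1.19, edgeR adjusted p = 0.0671), and the other 9 were not. By nucleus, 9 of the 10 were higher in MGv than in cortex, and 4 were higher and 1 lower in dLG than in cortex. In VPM against cortex, edgeR called 0, and 0 had an unadjusted p under 0.05. Between nuclei, 6 were higher in dLG than in VPM, and 9 were lower in VPM than in MGv. *Spry1* was called in dLG and MGv against cortex, where immediate early genes were called too. It was not called in dLG against VPM or in VPM against MGv, where 6 and 9 immediate early genes were called. Over the 17 libraries, their sum was correlated with *Spry2* (r = 0.653 in all, 0.331 within groups), *Spry1* (0.536 and 0.163), and *Spry4* (0.469 and 0.222). Their part in the *Spry1* difference was not tested. Of 4 proliferation genes, 3 were higher in thalamus than in cortex, with 2 in dLG, 4 in VPM, and 0 in MGv. Their sum was correlated with *Fgf9* (r = 0.605 in all, 0.047 within groups), *Spry1* (0.464 and 0.369), and *Fgfr2* (-0.501 and -0.007). The part of proliferation in these differences was not tested.

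**Figure D4:**
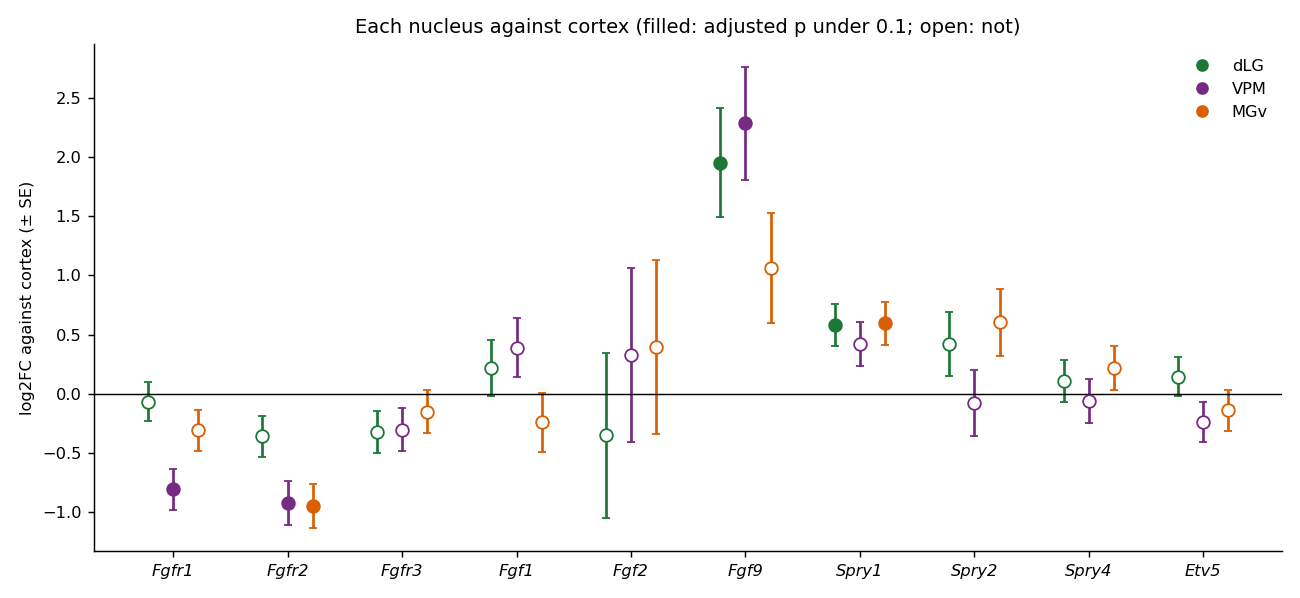
log2FC with SE of each of the 10 genes in dLG (green), VPM (purple), and MGv (orange) against cortex, filled where the adjusted p was under 0.1. The same 4 cortical libraries stand in all 3 comparisons. *Fgf9* is filled for dLG and VPM (1.96 and 2.29), *Fgfr2* for VPM and MGv (-0.92 and -0.95), *Fgfr1* for VPM (-0.81), and *Spry1* for dLG and MGv (0.58 and 0.59).

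By nucleus, 2 of the 10 members were called in dLG against cortex (19.4% of all genes tested), 3 in VPM (9% of all genes), and 2 in MGv (15.4% of all genes), with the same cortical libraries in each. Between nuclei, 2 were called in dLG against VPM, where the background was 13.7%, and 2 in VPM against MGv, where it was 15.4%. None was called in dLG against MGv by edgeR, where 1.02% of genes were. DESeq2 called 0 there as well. In the edgeR fit, 1 of the 10 (*Fgfr2*) had an unadjusted p under 0.05 there, against 1206 of all 17856 genes.

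When the 4 groups were put in order of their mean level, MGv and VPM for *Fgfr1* were the only neighbors in any of the 10 orders that differed at the threshold. The libraries fall into series by the leading digits of their library numbers, of which 2 held both regions, each with 2 of the cortical libraries. Within one and the other of these series, the log2FC of thalamus against cortex was -0.95 and -0.51 for *Fgfr2* (edgeR adjusted p = 0.0362 and 0.568). It was 1.62 and 2.19 for *Fgf9* (edgeR adjusted p = 0.344 and 0.0548), and 0.68 and 0.46 for *Spry1* (edgeR adjusted p = 0.0693 and 0.711). The direction was thus the same in both series for each gene, and the threshold was passed in 1 of them.

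Among the other 46 tested genes of the pathway, 8 were called in thalamus against cortex, 6 higher and 2 lower, beside 5.45% and 5.93% of all genes. The 2 lower genes were *Fgfbp3* and *Fgfrl1*. *Fgfbp3*, which encodes a secreted protein that binds FGFs, was at 257 ± 26.6 CPM in cortex (SD, n = 4), 62.0 ± 10.01 CPM in dLG (n = 5), 22.2 ± 1.71 CPM in VPM (n = 4), and 95.9 ± 39.8 CPM in MGv (n = 4). Cortex did not overlap with any nucleus. The log2FC against cortex was -2.08 ± 0.23 in dLG, -3.51 ± 0.26 in VPM (11.4-fold lower), and -1.47 ± 0.24 in MGv, with edgeR adjusted p = 3.52e-06, 3.39e-08, and 0.000492. VPM was also below dLG and MGv (edgeR adjusted p = 0.00235 and 9.44e-05). *Fgfrl1*, a receptor that lacks the tyrosine kinase domain, was at 150 to 179 CPM in cortex and 84.9 to 135 CPM in thalamus (log2FC = -0.63 ± 0.12, edgeR adjusted p = 0.00146).

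Of the other 15 secreted ligands, 11 were in the files and 6 were tested, and 2 of these rose in thalamus. *Fgf18* rose from 0.927 ± 0.205 to 2.33 ± 0.849 CPM (log2FC = 1.30 ± 0.37, edgeR adjusted p = 0.0355). *Fgf22*, known as an organizer of excitatory presynaptic terminals, rose from 0.207 ± 0.107 to 0.989 ± 0.499 CPM (2.22 ± 0.78, edgeR adjusted p = 0.0920), on 2 to 7 counts per cortical library. Among 7 tested receptors, co-receptors, and binding proteins, *Flrt1*, a membrane protein that interacts with FGF receptors, was higher in thalamus, at 14.4 ± 3.81 CPM in cortex and 34.4 ± 15.04 CPM in thalamus (1.23 ± 0.32, edgeR adjusted p = 0.0194). Of the 4 intracellular FGF homologous factors, edgeR and DESeq2 each called 0, and 0 had an unadjusted p under 0.05 in edgeR. Of the 9 genes of the Ras-ERK cascade, edgeR called 0, with 1 at an unadjusted p under 0.05, and DESeq2 called 1 (*Nras*). Their log2FCs in edgeR lay between -0.29 and 0.22.

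Among 10 adaptors, *Ptpn11*, which encodes the phosphatase SHP2, was higher in thalamus (0.62 ± 0.17, edgeR adjusted p = 0.0233), with 62.4 ± 10.9 CPM in cortex and 97.5 ± 21.1 CPM in thalamus. Of 10 other feedback inhibitors and ERK targets, 2 phosphatase genes were higher. *Dusp5* was at 6.84 ± 2.79 CPM in cortex and 17.9 ± 7.61 CPM in thalamus (1.35 ± 0.35, edgeR adjusted p = 0.0201), and *Dusp7* at 44.3 ± 8.01 and 68.5 ± 15.7 CPM (0.62 ± 0.20, edgeR adjusted p = 0.0583). The median log2FC of the 10 was 0.34, against 0.02 over all genes tested, and 8 of them did not pass. *Dusp6*, which encodes a phosphatase that inactivates ERK and which was singled out after its values were seen, did not pass between the regions but was lower than in cortex in dLG (-0.50 ± 0.18, edgeR adjusted p = 0.0828) and in MGv (-0.70 ± 0.20, edgeR adjusted p = 0.0291). Its mean level was 248.9 CPM in cortex, 180 CPM in dLG, 237 CPM in VPM, and 158 CPM in MGv.

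By nucleus, 16 of the 46 pathway genes were called in dLG against cortex (13 higher and 3 lower), beside 19.4% of all genes tested. In MGv 9 were called (6 higher and 3 lower), beside 15.4%, and in VPM 3 (1 higher and 2 lower), beside 9%, so that the counts stood in the same order as the shares of all genes. Between nuclei, 12 were called in dLG against VPM, of which 11 were higher in dLG, beside 13.7% of all genes, and 9 in VPM against MGv, of which 7 were lower in VPM, beside 15.4%. In dLG against MGv, edgeR called 0 of the 46, beside 1.02% of all genes, with 3 at an unadjusted p under 0.05, and DESeq2 called 0. Of the 10 adaptors, 4 were higher in dLG than in VPM and 3 were lower in VPM than in MGv. In the same comparisons, 5 and 2 of the 5 microglia markers, and 6 and 9 of the 10 immediate early genes, were lower in VPM, and their part in these counts was not tested.

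**Figure D5:**
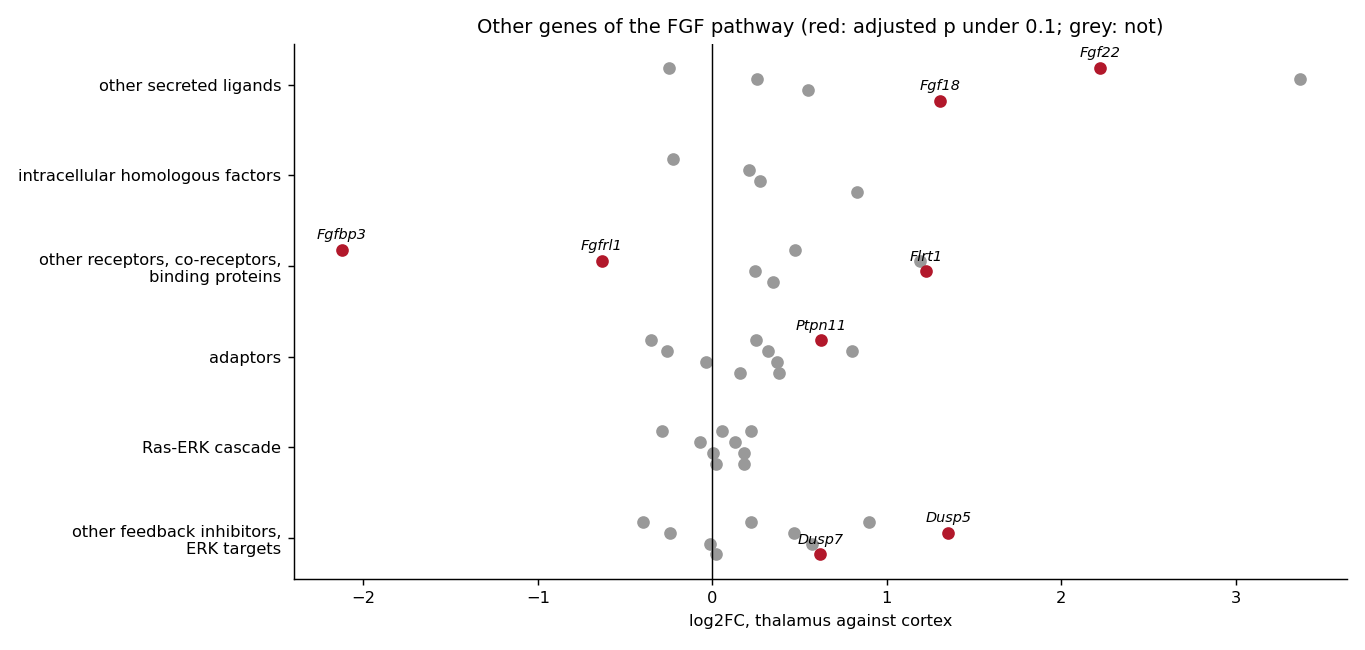
log2FC of thalamus against cortex for the 46 tested genes of the FGF pathway that are not among the 10, by list, in red and named where the adjusted p was under 0.1. The named genes lie between -2.12 (*Fgfbp3*) and 2.22 (*Fgf22*), and the Ras-ERK cascade lies within -0.29 and 0.22.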

How the data were processed

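RNA was measured in 17 libraries of sorted P7 *Gfap::GFP* astrocytes, made with the SMARTer kit and sequenced as single reads. The authors mapped the reads with STAR (2.7.0d) to mm10 (GRCm38) and counted them per Ensembl gene with featureCounts (Subread 1.6.4), per the labels and the submitters' processing notes, and deposited raw counts per gene without normalization. Whether reads were counted by strand is not given in the sources used here. Overlaps of exons with other genes are therefore stated for the 10 members where they exceed 10% or where the member was called in thalamus against cortex. *Fgfr1* shares 1.66% of its exonic length with the antisense gene *Gm16159*. Beyond the members, *Dusp5* shares 22.1% of its exonic length with an antisense gene. *Nefl* and *Nefm* overlap each other, in 32.8% and 19.2% of their exonic lengths. The tables hold 26556 genes, whose smallest total over the 17 libraries is 10 counts. Symbols and positions came from GENCODE for GRCm38 and were found for 26548 identifiers, leaving 8 without.

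CPM were scaled by TMM in edgeR 4.0.16 (R 4.3.3, limma 3.58.1), and filterByExpr kept 17856 genes. Thalamus and cortex were fitted as 2 groups of 13 and 4, and pairs of cortex, dLG, VPM, and MGv in a fit of 4 groups, with the robust quasi-likelihood test and BH adjustment over all genes. SEs were derived from the log2FC and its *F* statistic. Groups came from the labels. Whether libraries of different regions came from the same brains is not given in the sources used here, and p-values measure the spread between these libraries. Similarity of pattern is Pearson's r of log2 CPM (prior count 2). Named are the 10 members, up to 3 called genes per pathway list by lowest p, and 3 genes most similar to each member called between the regions. *Ier2*, *Fgfr4*, *Dusp6*, *Nras*, the overlapping genes, and the markers were named after their values were seen. The members and lists were chosen with earlier results of these data known. Promoter windows are from RefSeq (GRCm38.p6), in which 7 of the 10 members matched, and *Fgfr1*, *Fgf1*, and *Spry4* did not. Alternatives were DESeq2 1.42.0, its size factors, other filters and thresholds, the replicate letter, the library number series, and each library left out. Python 3.11.15 with numpy 2.4.6, pandas 2.3.3, and matplotlib 3.10.9 was used.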

Additional observations from a re-analysis of the deposited data

Results flagged for a closer look

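Among 40 sets of 4 or 5 libraries (10 genes in 4 groups), 3 held a library far from the others of its group by Dixon's criterion, which chance alone gives in about 1 in 20. *Spry2* was at 119 CPM in dLG replicate e, and the next dLG library was at 63.7 CPM. *Spry4* was at 67.3 CPM in VPM replicate d, below the others, the nearest at 98.0 CPM. *Fgf2* was at 1.99 CPM in MGv replicate a, and the nearest was at 3.53 CPM.

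In 4 cases, nuclei differed from each other in their distance from cortex by the edgeR test between those nuclei. For *Fgfr1*, dLG was above VPM by a log2FC of 0.74 (edgeR adjusted p = 0.0144), and VPM was below MGv by -0.50 (edgeR adjusted p = 0.0772). For *Fgfr2*, dLG was above VPM by 0.56 (edgeR adjusted p = 0.0608). For *Fgf9*, VPM was above MGv by 1.22 (edgeR adjusted p = 0.0996).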

How the results depend on the processing

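The count of members called in VPM against cortex was 3 in every fit that left out a library and within 1.5 times that in the 8 other settings. In thalamus against cortex it was within 1.5 times in 8 settings and between 1 (without cortex replicate c) and 3 without single libraries. Those settings held thalamus as the mean of the 3 nuclei in place of a fit of only the 2 groups compared. Without single libraries it was 1 to 3 in dLG against cortex (1 without cortex replicate b), 1 to 4 in MGv against cortex (1 without cortex replicate b and 4 without MGv replicate c), 1 to 3 in dLG against VPM (1 without dLG replicate b or c or VPM replicate a), 0 to 1 in dLG against MGv (1 without MGv replicate c), and 0 to 2 in VPM against MGv (0 without VPM replicate a or d). The count of pathway genes called in thalamus against cortex was 8 in the main fit and 12 with DESeq2. Without single libraries it ranged from 5 (without cortex replicate b or c) to 9. At an adjusted p under 0.05, 1 member was called in dLG against VPM and 0 in VPM against MGv. When the series of library numbers was a covariate, 1 was called in each of these. With thalamus as the mean of the 3 nuclei, 4 members and 11 pathway genes were called. The shares of all genes called in the alternative fits, including the replicate block below, are not given here. A change in these counts therefore cannot be told apart from a change over all genes. With DESeq2's size factors, and with no filter on low counts, 1 was called in VPM against MGv. Near 0, the log2FC of thalamus against cortex changed sign for *Fgf2* (between -0.107 and 0.428 without single libraries, lowest without cortex replicate d, and -0.0555 as a difference of mean log2 CPM), *Etv5* (between -0.111 and 0.0834 without single libraries, highest without cortex replicate d, and 0.0858 within one library series), and *Spry4* (-0.0124 within that series). The exact two-sided permutation test over 2380 arrangements gave p = 0.0063 for *Fgf9*, 0.00462 for *Fgfr2*, and 0.00252 for *Spry1*, unadjusted. Of 554 alternative values of 21 log2FCs, 507 kept direction and side of the threshold, 41 no longer passed, 1 newly passed (*Fgfr1* with thalamus as the mean of the 3 nuclei, -0.40), and 5 changed sign, and the cause was not tested.

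Libraries of the same replicate letter did not deviate together (r from -0.156 to 0.219 over 24 pairs, with 4 above 0.1). With a replicate block on that letter, 1 member was called in dLG against MGv and 4 in VPM against MGv, and the counts in the other comparisons were within 1.5 times.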
